A study of Mus musculus with 9 samples.

Results

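Transcripts of 10 genes that mark the macrophages of the heart were followed across 3 *Ctcf* genotypes in embryonic mouse hearts. The genes were taken by name, and all 10 were found among the 24597 gene symbols of the expression table: the complement chains *C1qa*, *C1qb* and *C1qc*, the receptors *Csf1r*, *Cx3cr1*, *Mrc1*, *Lyve1* and *Cd163*, the adhesion receptor *Adgre1* and the lysosomal protein *Cd68*. Hearts came from C57BL/6N embryos at E18.5, either wild type or carrying R567W on 1 or both copies of *Ctcf* (heterozygous and homozygous). R567W is an amino-acid substitution in CTCF, the zinc-finger protein that anchors chromatin loops. CRISPR/Cas9 editing had placed the substitution in the germ line, so every cell of a mutant embryo carried it, macrophages and heart muscle alike. Each genotype had 3 libraries. The methods put each heart in a tube of its own and mention no pooling, so each library is taken as the heart of 1 embryo. The labels give neither litters nor sexes, so that p-values measure the spread between these hearts only.

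Resident macrophages enter the heart before birth from the yolk sac and the fetal liver and renew themselves there with little help from blood monocytes. They depend on signalling through CSF1R, the receptor for CSF1 and IL-34, clear dying cells and debris, and stay close to vessels and conducting fibres. C1q, which they secrete, binds immune complexes and dying cells and starts the classical complement pathway. Receptors such as CD206 (*Mrc1*), CD163 and LYVE1 take up glycoproteins, haemoglobin complexes and hyaluronan, and are typical of the self-renewing population, whereas CCR2 marks macrophages derived from monocytes.

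Expression was given as TPM, a transcript abundance corrected for length that sums to a nearly constant total, here between 999100 and 999245 per library. The number of reads behind a value is therefore unknown. Of the 13682 genes that averaged 1 TPM or more across the libraries and were tested, 9 were macrophage markers, and *Cd163*, at a mean of 0.797 TPM, was the marker below this limit. The 3 libraries wild-type replicate 1, heterozygous replicate 1 and homozygous replicate 3 stood apart in carrying transcripts of neighbouring organs. Airway and lung transcripts were abundant in wild-type replicate 1 and heterozygous replicate 1, liver transcripts in heterozygous replicate 1 and thymus transcripts in homozygous replicate 3. *Xist*, transcribed from the inactive X chromosome, was present in wild-type replicate 1, all 3 heterozygous replicates and homozygous replicate 1, and Y-linked transcripts in the other 4 libraries, so the heterozygous group differed in sex composition from the others.

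The markers ranged over more than an order of magnitude in TPM. *C1qb* was highest with a mean over the 9 libraries of 17.8 TPM, followed by *Lyve1* at 16.0 TPM, *C1qa* at 14.9 TPM and *C1qc* at 11.5 TPM. *Csf1r* at 5.11 TPM, *Mrc1* at 4.68 TPM and *Cd68* at 4.05 TPM formed a middle group. *Cx3cr1* at 2.40 TPM, *Adgre1* at 1.45 TPM and *Cd163* at 0.797 TPM were lowest. The ranges of neighbours in this order overlapped at each step but 1, the gap between *C1qc*, whose lowest library was 7.63 TPM, and *Csf1r*, whose highest was 7.5 TPM. *C1qb* exceeded 61.9% of the tested genes in mean level, and *Adgre1*, which encodes the F4/80 antigen, only 5.83% of them. All 10 transcripts were detected in all 9 hearts.

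**Figure D1:**
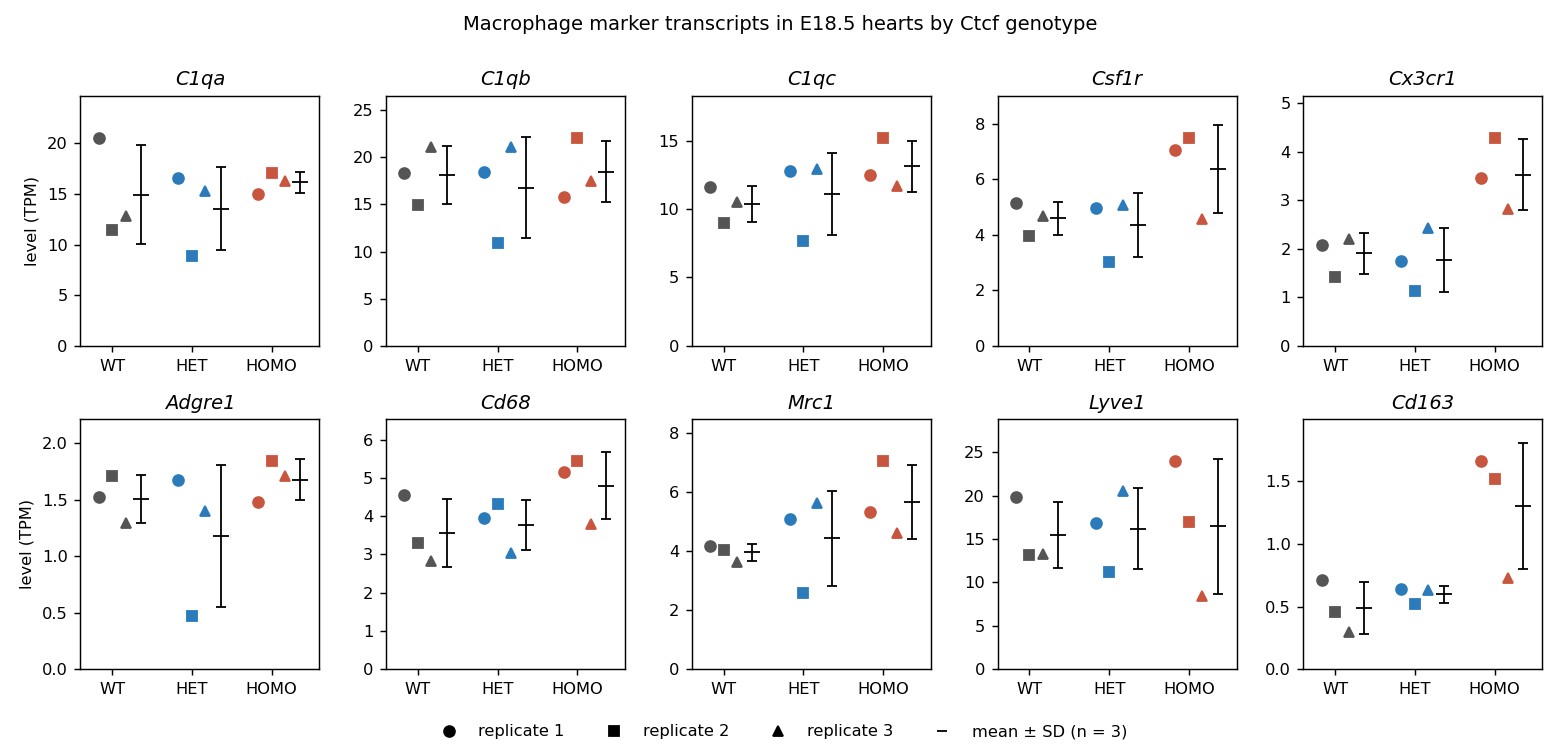
Level of each macrophage marker in TPM (vertical axes, each starting at 0) in wild-type (WT), heterozygous (HET) and homozygous (HOMO) hearts. Each symbol is 1 library, and bars give the mean ± SD of 3 libraries. All 3 homozygous values of *Cx3cr1*, from 2.83 to 4.29 TPM, lay above the 6 other libraries, and the heterozygous replicate 2 values of the C1q chains were the lowest of the 9.

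The C1q chains are encoded side by side on chromosome 4, between 136880129 and 136898803 (mm10), a span of 18675 bases in which *C1qb*, *C1qc* and *C1qa* follow each other on the minus strand with no other gene overlapping them. Promoters are given here for members that lie together or that separated homozygous from wild-type hearts, where a RefSeq entry was at hand (GRCm38.p6, 5′ to 3′, up to 250 bases before the start, without transcribed bases). Entries for 6 of the 10 genes were read. That of *Cd68* is not printed because the gene met neither condition, and that of *Cx3cr1* because the window lies in annotated exons. Capitals mark the letters GAGGAA or TTCCTC, the core bound by the myeloid regulator PU.1, and TGCTGA or TCAGCA, a core of the elements bound by MAF proteins, each searched on both strands. The first pair occurred in 23.3% and the second in 16.1% of 32851 mouse promoter windows of 250 bases. The windows of *C1qb*, *C1qc* and *Mrc1* held 1, 1 and 3 of the PU.1 letters, that of *C1qb* also held 1 of the MAF letters without overlap, and that of *Cd163* held neither. A match describes letters only and is not evidence of binding.
*C1qb* promoter, chr4:136886201.0-136886450.0, minus strand: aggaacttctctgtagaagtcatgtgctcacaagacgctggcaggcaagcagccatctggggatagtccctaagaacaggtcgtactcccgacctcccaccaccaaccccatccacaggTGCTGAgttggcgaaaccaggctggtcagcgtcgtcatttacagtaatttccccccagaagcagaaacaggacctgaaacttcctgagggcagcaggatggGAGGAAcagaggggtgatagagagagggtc
*C1qc* promoter, chr4:136893066.0-136893164.0, minus strand: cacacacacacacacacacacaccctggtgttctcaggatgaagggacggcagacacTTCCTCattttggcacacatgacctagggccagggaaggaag
*Mrc1* promoter, chr2:14229164.0-14229391.0, plus strand: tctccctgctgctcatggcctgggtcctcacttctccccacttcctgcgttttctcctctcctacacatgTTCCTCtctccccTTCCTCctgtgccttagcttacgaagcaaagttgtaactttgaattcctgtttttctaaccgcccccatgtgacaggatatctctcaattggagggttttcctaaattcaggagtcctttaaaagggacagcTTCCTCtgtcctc
*Cd163* promoter, chr6:124304401.0-124304650.0, plus strand: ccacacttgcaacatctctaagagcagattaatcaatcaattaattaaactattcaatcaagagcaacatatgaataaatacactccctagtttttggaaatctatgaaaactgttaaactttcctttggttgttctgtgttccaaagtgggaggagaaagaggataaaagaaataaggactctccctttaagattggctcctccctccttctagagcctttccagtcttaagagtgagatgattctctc

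Within a library the markers tended to be high or low together. Homozygous replicate 2 was the highest of the 9 libraries for 7 of the 10 genes, homozygous replicate 1 for 2 and wild-type replicate 1 for 1. Heterozygous replicate 2 was the lowest for 7 genes, wild-type replicate 3 for 2 and homozygous replicate 3 for 1. The summed level of the 10 genes was 88.5, 63.4 and 72.7 TPM in wild-type libraries, 82.6, 50.6 and 88.0 TPM in the heterozygous libraries and 91.4, 99.0 and 72.05 TPM in the homozygous libraries. By genotype this averaged 74.9 ± 12.7 TPM (wild type), 73.8 ± 20.2 TPM (heterozygous) and 87.5 ± 13.9 TPM (homozygous; SD, n = 3 each), and the genotypes overlapped. In tissue RNA, fewer macrophages and less RNA per macrophage cannot be told apart.

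**Figure D2:**
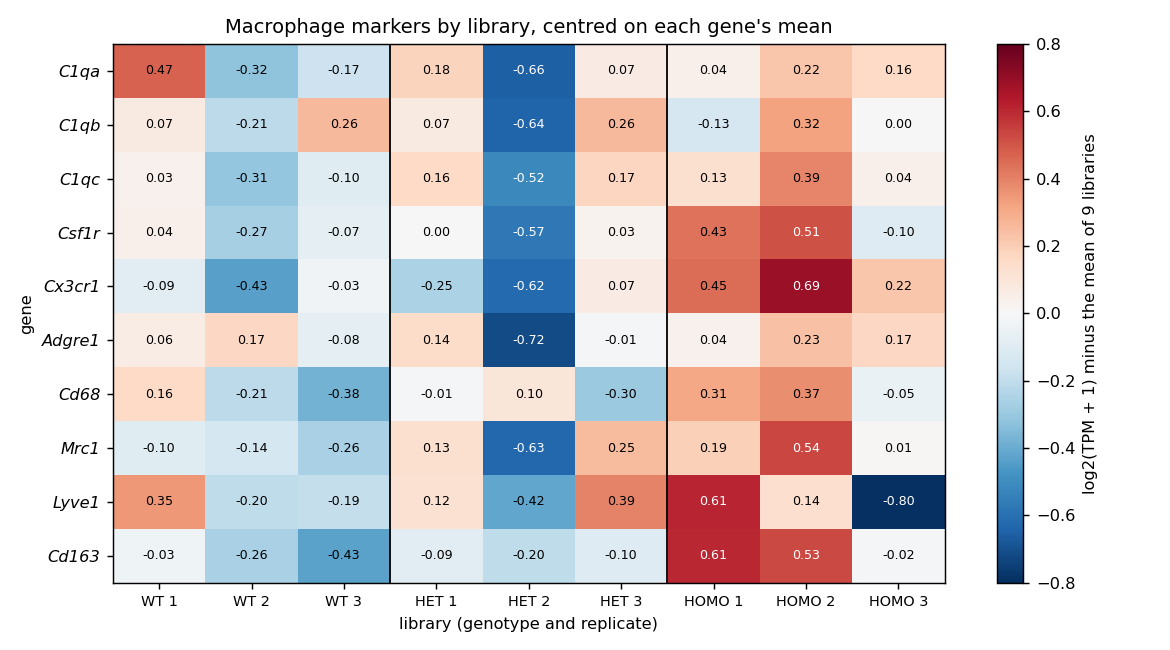
Each square gives log2(TPM + 1) of 1 marker (rows) in 1 library (columns; WT, wild type; HET, heterozygous; HOMO, homozygous), minus the mean of the 9 libraries for that gene. Nearly the whole column of heterozygous replicate 2 is blue, with *Cd68* as the exception, and the column of homozygous replicate 2 is red for all 10 genes.

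As a description over the 9 libraries, which share a common total, the member closest to the mean of the other tested markers was *Csf1r* (Pearson r = 0.95, Spearman rho = 0.98), followed by *C1qc* (r = 0.95, rho = 0.82) and *Mrc1* (r = 0.91, rho = 0.85). *Cd68*, which encodes a lysosomal glycoprotein of all phagocytes, had the lowest Pearson correlation (r = 0.33, rho = 0.53), followed by *Lyve1*, also made by lymphatic endothelium (r = 0.50, rho = 0.72). By Spearman correlation *Adgre1* was lowest (r = 0.69, rho = 0.35), and *C1qb* (rho = 0.58) and *C1qa* (rho = 0.68) also lay below *Lyve1*. The C1q chains kept to each other within narrower limits than their levels, with *C1qc* at 0.499 to 0.789 of the *C1qb* TPM over the 9 libraries. The *C1qa* to *C1qb* ratio spread from 0.608 to 1.12, its highest value being that of wild-type replicate 1.

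Setting homozygous against wild-type hearts asked which transcripts the substitution altered during heart development. None of the 9 tested macrophage markers passed a limma adjusted p of 0.05, and 1 of them, *Cx3cr1*, had an unadjusted p under 0.05. Over all genes 46 of 13682 (0.336%) passed the adjusted threshold and 25.0% had an unadjusted p under 0.05. All 9 markers had a log2 change above 0, but so did 81.7% of all tested genes, whose median log2 change was 0.23. The median of the markers was 0.31, and 5 of the 9 lay above the median of all genes. After median-ratio scaling, which moved the median of all genes to 0.01, *C1qa*, *C1qb*, *Adgre1* and *Lyve1* turned negative and the other 5 stayed above 0. At *C1qc*, *Cx3cr1* and *Mrc1*, 3 of the 9 markers, every homozygous heart was above every wild-type heart. Over all genes 24.7% were without overlap, 22.3% with homozygous hearts higher.

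*Cx3cr1* encodes the fractalkine receptor, which lies on chromosome 9 from 119901616 to 120069879 on the minus strand. It was measured at 2.08, 1.43 and 2.21 TPM in wild-type libraries, 1.75, 1.13 and 2.43 TPM in the heterozygous libraries and 3.47, 4.29 and 2.83 TPM in the homozygous libraries. The lowest homozygous heart was thus above the highest of the 6 others. The homozygous mean was 3.53 ± 0.732 TPM (SD, n = 3) against 1.91 ± 0.418 TPM for wild type (SD, n = 3). The log2 change was 0.64 (SE 0.24, 95% interval 0.11 to 1.17), or 0.41 above the median of all genes, with an unadjusted limma p of 0.0227 and an adjusted p of 0.151. Several genes lie within the annotated span, among them the muscle gene *Xirp1*, but 1.73% of the exonic bases of *Cx3cr1* fell in exons of another gene, on the opposite strand.

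Of the C1q chains, *C1qa* and *C1qb* overlapped between homozygous and wild-type hearts and *C1qc* did not. *C1qa* stood at 20.5, 11.4 and 12.8 TPM in wild-type libraries, 16.6, 8.84 and 15.2 TPM in the heterozygous libraries and 14.96, 17.1 and 16.3 TPM in the homozygous libraries. *C1qb* stood at 18.4, 14.95 and 21.1 TPM, at 18.4, 10.9 and 21.1 TPM and at 15.8, 22.1 and 17.5 TPM in the same order. Both genes also overlapped in the other comparisons, and the log2 changes were 0.15 (SE 0.25, 95% interval -0.40 to 0.69) and 0.02 (SE 0.23, 95% interval -0.49 to 0.54) between homozygous and wild-type hearts. *C1qc* stood at 11.6, 8.97 and 10.5 TPM (wild type), 12.8, 7.63 and 12.9 TPM (heterozygous) and 12.5, 15.2 and 11.7 TPM (homozygous). Its homozygous values lay above the wild-type values by a margin of less than 0.1 TPM, and the log2 change was 0.31 (SE 0.20, adjusted p 0.329 by limma), 0.08 above the median of all genes.

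*Csf1r*, the receptor on which macrophage survival depends, lies on chromosome 18 from 61100598 to 61132149 on the plus strand. It was measured at 5.15, 3.96 and 4.67 TPM in wild-type libraries, 4.97, 3.02 and 5.09 TPM in the heterozygous libraries and 7.05, 7.5 and 4.56 TPM in the homozygous libraries. Homozygous replicates 1 and 2 were the highest of the 9 libraries, while replicate 3, the library with thymus transcripts, lay among the wild-type values. The log2 change was 0.38 (SE 0.22, limma adjusted p 0.292). Of its exonic bases 15.1% lie in exons of *Hmgxb3* on the opposite strand, and strand use in counting is not stated, so the 2 genes may share reads. The *Hmgxb3* level was 8.48 to 11.4 TPM (wild type), 11.3 to 13.1 TPM (heterozygous) and 11.9 to 13.7 TPM (homozygous).

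*Adgre1* and *Cd68*, general macrophage markers, gave log2 changes of 0.10 (SE 0.27, limma adjusted p 0.831) and 0.35 (SE 0.20, adjusted p 0.291). *Adgre1* was between 1.29 and 1.71 TPM in wild-type hearts and between 1.48 and 1.84 TPM in homozygous hearts, and had its lowest value, 0.47 TPM, in heterozygous replicate 2. *Cd68* was at 4.56, 3.31 and 2.83 TPM (wild type), 3.95, 4.33 and 3.05 TPM (heterozygous) and 5.16, 5.44 and 3.79 TPM (homozygous). Both overlapped between the groups.

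The endocytic receptors did not behave alike. *Mrc1* stood at 4.18, 4.04 and 3.64 TPM in wild-type libraries, 5.07, 2.59 and 5.61 TPM in the heterozygous libraries and 5.32, 7.04 and 4.59 TPM in the homozygous libraries. Homozygous and wild-type hearts were without overlap, at a log2 change of 0.41 (SE 0.24, adjusted p 0.291 by limma) and 0.26 without homozygous replicate 2. The heterozygous hearts overlapped both groups. *Lyve1* stood at 19.8, 13.2 and 13.3 TPM (wild type), 16.8, 11.2 and 20.5 TPM (heterozygous) and 23.98, 16.97 and 8.41 TPM (homozygous). The highest and the lowest of all 9 *Lyve1* values were both homozygous, and the 95% interval of its log2 change reached from -0.74 to 0.74.

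*Cd163*, the haemoglobin-haptoglobin receptor (chromosome 6, 124304656 to 124330527, plus strand), was scarce, and its homozygous values lay above all wild-type values. Its values were 0.71, 0.46 and 0.3 TPM in wild-type libraries, 0.64, 0.52 and 0.63 TPM in the heterozygous libraries and 1.66, 1.52 and 0.73 TPM in the homozygous libraries. Homozygous replicate 3 was only 0.02 TPM above wild-type replicate 1. The mean log2(TPM + 1) of homozygous hearts exceeded that of wild-type hearts by 0.61, and the two-sided exact permutation test gave 0.1, the smallest p possible with 3 libraries a side. In a limma fit without a filter on low values its adjusted p was 0.202. On the log2(TPM + 1) scale the change of such a scarce transcript is understated, and a difference of 1.24 was obtained with a pseudocount of 0.1.

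**Figure D3:**
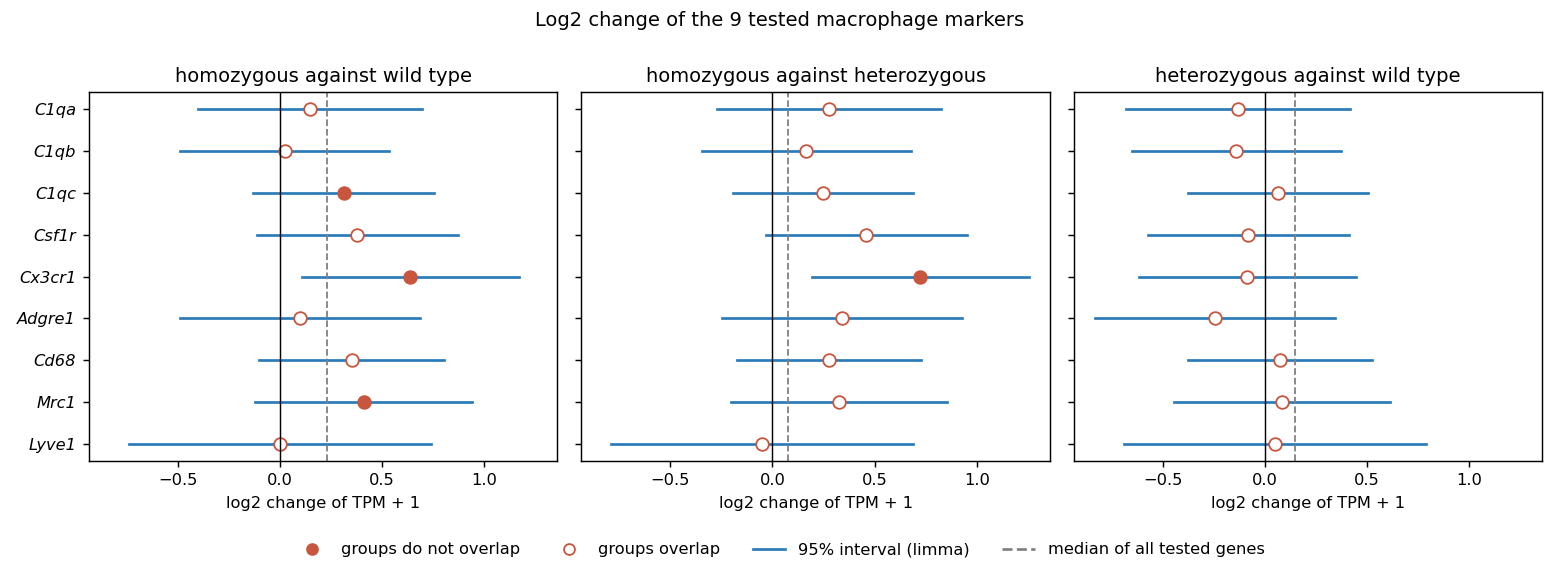
Log2 change of TPM + 1 (horizontal axes) for the 9 tested macrophage markers in the 3 comparisons. Points are estimates, blue lines 95% intervals from limma, filled points genes whose groups do not overlap, and the dashed line is the median of all tested genes. The interval of *Cx3cr1* lies above 0 in both comparisons with homozygous hearts, and in the comparison of heterozygous with wild-type hearts all 9 points lie left of the dashed line.

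Against heterozygous hearts, homozygous hearts again had none of the 9 markers past a limma adjusted p of 0.05 and 1 with an unadjusted p under 0.05, where 0.0439% and 7.15% of all genes were past these limits. This comparison uses the same homozygous libraries as the one before and is not an independent repeat of it. The median log2 change of the markers was 0.28 and that of all genes 0.08, and 8 of the 9 markers lay above the latter. The log2 change of *Cx3cr1* was 0.72 (SE 0.24, 95% interval 0.19 to 1.25), with an unadjusted limma p of 0.0121 and an adjusted p of 0.624. It was the only tested marker without overlap, whereas 15.9% of all genes were without overlap, 12.0% with homozygous hearts higher. *Csf1r* followed with 0.46 (SE 0.22, adjusted p 0.726), and *Lyve1*, at -0.05 (SE 0.33, adjusted p 0.981), was the only negative value. For *Cd163* the difference was 0.50, without overlap, with the same smallest exact permutation p of 0.1. The shift of the markers rested on 1 library, since without heterozygous replicate 2 their median was 0.05 and that of all genes 0.04.

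Between heterozygous and wild-type hearts no marker was called. None of the 9 passed a limma adjusted p of 0.05, against 0.0146% of all genes, and none had an unadjusted p under 0.05, against 6.87% of all genes. None was without overlap, against 13.8% of all genes. The log2 changes lay between -0.24 at *Adgre1* and 0.08 at *Mrc1* with a median of -0.08, and all 9 were below the median of all genes, 0.15. This position depended on single libraries. Without wild-type replicate 1, 5 of the 9 markers were above the median of all genes (marker median 0.11 against 0.09). Without heterozygous replicate 2, 3 of the 9 were above it (marker median 0.13 against 0.19). For *Cd163* the difference was 0.11, and the two-sided exact permutation test gave a p of 0.6.

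Because the levels moved together within a library, the receptors were also set against the summed TPM of the C1q chains of the same library, a ratio that no scaling of whole libraries can alter. For *Cx3cr1* the ratio was 0.0412, 0.0405 and 0.0497 in wild-type hearts, 0.0367, 0.0413 and 0.0493 in heterozygous hearts and 0.0802, 0.0789 and 0.0623 in homozygous hearts. Homozygous hearts were above the 6 others, and heterozygous replicate 2, the library with the lowest C1q sum, lay among the rest. For *Csf1r* the 6 wild-type and heterozygous ratios lay between 0.102 and 0.112, while the homozygous ratios were 0.163, 0.138 and 0.1. The *Mrc1* ratio was 0.0819 to 0.114 in wild-type, 0.0947 to 0.114 in heterozygous and 0.101 to 0.129 in homozygous hearts, with overlap. For *Adgre1* the homozygous ratios of 0.0338 to 0.0376 lay inside the wild-type range of 0.029 to 0.0484. The ratio shows unequal change between receptor and C1q transcripts and does not say which of them differed. These ratios were chosen with the levels known and are given without a test.

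**Figure D4:**
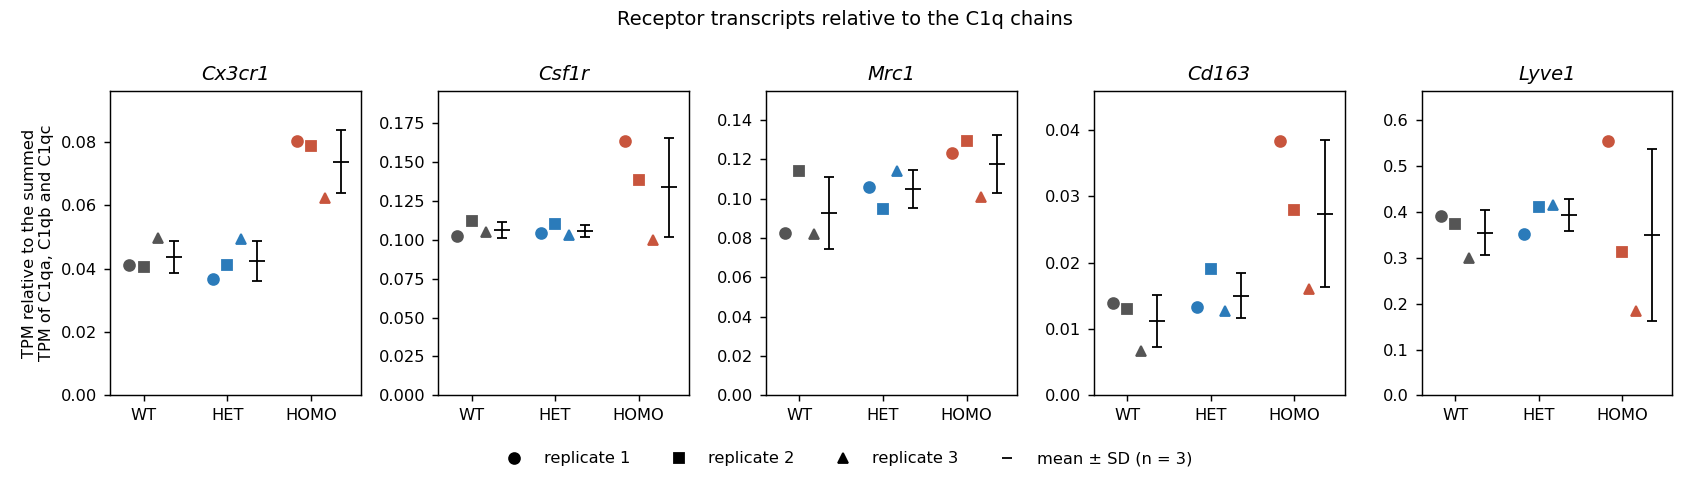
TPM of 5 receptor transcripts divided by the summed TPM of *C1qa*, *C1qb* and *C1qc* in the same library (vertical axes, each starting at 0) in wild-type (WT), heterozygous (HET) and homozygous (HOMO) hearts. Symbols are libraries, and bars give the mean ± SD of 3. The 3 homozygous *Cx3cr1* ratios, 0.0623 to 0.0802, lie above all others, whereas the *Lyve1* ratios of homozygous hearts span 0.185 to 0.554.

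Further macrophage genes were read from 4 lists. In none of the lists did a gene pass a limma adjusted p of 0.05 in any comparison. Of 16 genes of resident macrophages 12 were tested, and in homozygous against wild-type hearts 3 of the 12 had an unadjusted p under 0.05, 8 had a log2 change above 0 and the median was 0.33. Of 20 general macrophage and myeloid genes 17 were tested, with 1 at an unadjusted p under 0.05, 11 above 0 and a median of 0.12. Of 12 CSF1R ligands and macrophage regulators, all tested, 2 had an unadjusted p under 0.05, 10 were above 0 and the median was 0.20. Of 18 complement genes beside C1q 14 were tested, with 3 at an unadjusted p under 0.05, 10 above 0 and a median of 0.30. Over all genes 25.0% had an unadjusted p under 0.05 and 81.7% were above 0. The medians of all 4 lists lay within 0.12 of the median of all genes, 0.23.

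Several of the largest and smallest log2 changes of these lists rested on 1 library. Among resident macrophage genes the highest was *Ccl24*, an eosinophil-attracting chemokine, at 1.04 (SE 0.43, limma adjusted p 0.172), with 1.67, 1.21 and 6.01 TPM in homozygous and 0.37 to 1.05 TPM in wild-type hearts. Without homozygous replicate 3 its log2 change was 0.53, and without the 3 libraries with other organs 0.38. The lowest was *Cbr2*, a carbonyl reductase also abundant in airway cells, at -0.97 (SE 1.53, adjusted p 0.691), which reached 117 and 48.7 TPM in the libraries with lung transcripts, wild-type replicate 1 and heterozygous replicate 1, and at most 8.95 TPM elsewhere. Without wild-type replicate 1 its log2 change was 0.87. Among general myeloid genes the highest was *Ptprc*, the CD45 antigen of all leukocytes, at 1.47 (SE 0.95, adjusted p 0.333), with 50.2 TPM in homozygous replicate 3, the library with thymus transcripts, and 0.71 to 2.19 TPM in the other 8. Without that library its log2 change was -0.01. The lowest was *Cd14*, a co-receptor for bacterial lipopolysaccharide, at -1.03 (SE 0.37, adjusted p 0.143). It stood at 3.31, 2.1 and 0.8 TPM (wild type), 0.9, 0.3 and 0.41 TPM (heterozygous) and 0.89, 0.11 and 0.36 TPM (homozygous). Heterozygous against wild-type hearts gave a similar log2 change, -0.93 (SE 0.37, limma adjusted p 0.672).

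Of the ligands and regulators, *Il34*, the second ligand of CSF1R, was highest at 1.004 (SE 0.44, limma adjusted p 0.191). It stood at 1.46, 0.5 and 0.23 TPM in wild-type hearts and at 0.98, 5.68 and 1.77 TPM in homozygous hearts. Without homozygous replicate 2, the highest of these hearts, its log2 change was 0.50. *Cebpb* was lowest at -0.16 (SE 0.33, adjusted p 0.767). The extremes among the complement genes were *C4b* at 0.71 (SE 0.48, adjusted p 0.353) and *Cfb* at -0.32 (SE 0.66, adjusted p 0.766). Both had their highest value in heterozygous replicate 1, the library with liver transcripts, at 5.17 and 15.3 TPM.

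A further 2 genes of these lists are named because their values were seen to stand out, not by the rule for named genes. *Maf*, a transcription factor of mature macrophages that other cell types also use, stood at 3.06, 2.54 and 2.48 TPM (wild type) and at 5.02, 7.58 and 5.55 TPM (homozygous), and the heterozygous values ran from 2.97 to 4.08 TPM. Homozygous hearts were above all 6 others, with a log2 change against wild type of 0.92 (SE 0.19, limma adjusted p 0.0768). *F13a1*, a coagulation factor subunit made by resident macrophages, was at 5.54, 3.98 and 2.9 TPM (wild type), 4.46, 2.1 and 5.43 TPM (heterozygous) and 7.43, 9.53 and 7.8 TPM (homozygous), with a log2 change of 0.87 (SE 0.28, adjusted p 0.126). *Maf* passed the threshold in 2 of 21 other settings and *F13a1* in 1 of 22.

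Markers of other cells were read beside these values, and their part in them was not tested. Summed over 15 genes, thymocyte transcripts reached 765 TPM in homozygous replicate 3 and 1.33 to 4.06 TPM in the other 8 libraries, and 6 thymic epithelium genes reached 230.3 TPM against 3.5 to 10.3 TPM. The 14 markers of monocytes and dendritic cells summed to 397 TPM in homozygous replicate 3, mostly from antigen-presentation genes that thymic epithelium also expresses, and to 9.98 to 21.1 TPM elsewhere. *Ccr2*, the receptor of monocytes, was between 0.1 and 0.66 TPM in 8 libraries and 1.58 TPM in homozygous replicate 3. The same library had the lowest summed level of 8 cardiomyocyte genes, 21150 TPM against 26950 to 32490 TPM, and the lowest of the homozygous values for 7 of the 10 macrophage markers.

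In wild-type replicate 1, 11 airway and lung genes (without *Hopx*, which heart muscle also expresses) summed to 2621 TPM, and in heterozygous replicate 1 to 1107 TPM, against at most 50.8 TPM elsewhere. The 6 of 7 alveolar macrophage markers found in the table summed to 0.52 to 5.69 TPM, with the highest values in heterozygous replicate 1, homozygous replicate 3 and wild-type replicate 1. Of its defining genes, *Ear2* was at 0 in 3 libraries and at most 2.46 TPM, and *Chil3* was between 0 and 2.68 TPM. Liver genes summed to 3284 TPM in heterozygous replicate 1 and 17.3 to 71.01 TPM elsewhere. The 5 Kupffer cell markers summed to 4.78 TPM in that library, against 1.12 to 1.83 TPM. *Clec4f*, their defining gene, was at 1.34 TPM there and at 0.22 to 1.11 TPM elsewhere. The 10 neutrophil markers were also highest in that library, with *S100a8* at 38.8 TPM against 3.35 to 13.2 TPM. Within its genotype, wild-type replicate 1 was the highest library for 7 of the 10 cardiac macrophage markers and the lowest for 0, and heterozygous replicate 1 was the highest for 3 and the lowest for 0.

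Without the 3 libraries that carried other organs, 2 hearts remained per genotype, and the changes were recomputed. All 9 changes between homozygous and wild-type hearts stayed above 0, 7 of them above the median of all genes, with a marker median of 0.56 against 0.22 for all genes. None was called, and 11 genes were called in all.

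*Lyve1* is shared with lymphatic vessels. The 6 markers of lymphatic endothelium, all tested, summed to 39.4 to 48.03 TPM (wild type), 48.5 to 57.3 TPM (heterozygous) and 59.3 to 79.3 TPM (homozygous). These homozygous sums lay above all others, but the separation ended without *Ccl21a*, a setting chosen after the values were seen. The other 5 genes then summed to 30.6 to 38.9 TPM (wild type), 43.1 to 45.7 TPM (heterozygous) and 48.4, 55.8 and 29.6 TPM (homozygous), replicate 3 being the lowest of the 9 libraries. *Prox1*, a transcription factor of this endothelium, was at 13.4, 13.9 and 20.1 TPM (wild type) and 21.3, 25.5 and 15.02 TPM (homozygous), with overlap. Whether other cells of the heart added to its level was not tested. *Ccl21a*, the gene of this list with the highest change, was at 29.6 TPM in homozygous replicate 3, the library with thymus transcripts, and *Lyve1* had its lowest value there.

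**Figure D5:**
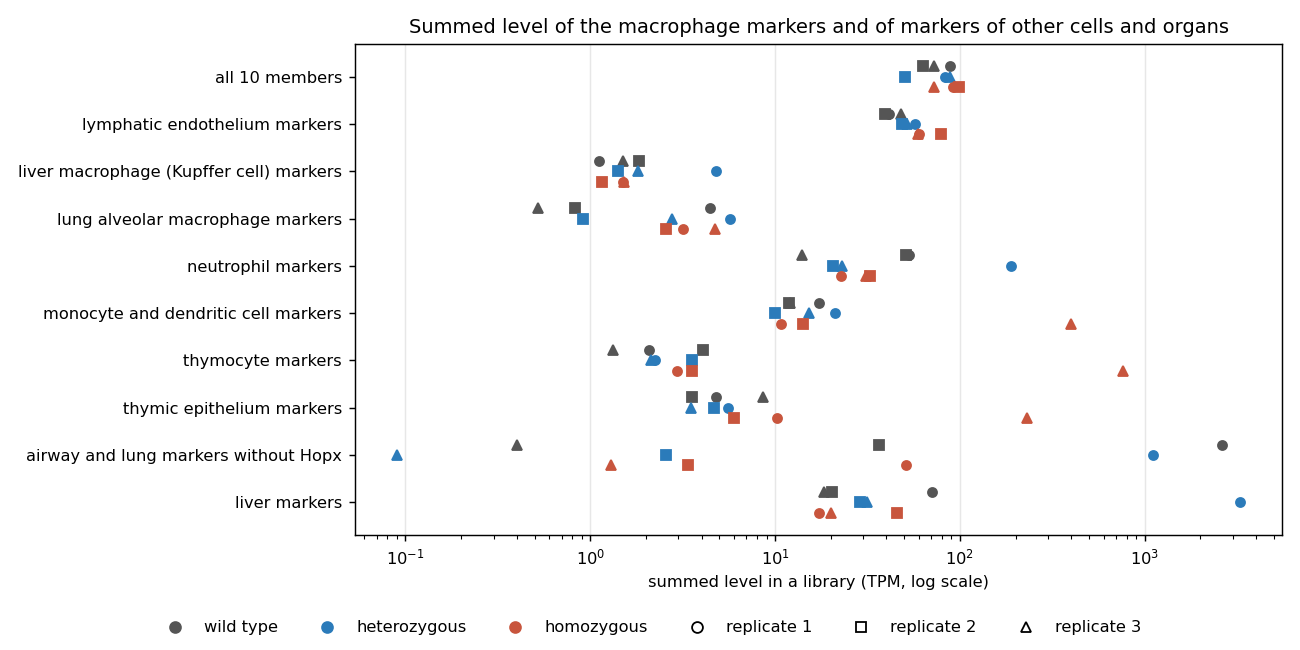
Summed TPM per library (horizontal axis, log scale) of the 10 macrophage markers and of marker lists of other cells and organs (rows). Colour gives the genotype and shape the replicate. The macrophage markers keep between 50.6 and 99.0 TPM, while thymocyte genes reach 765 TPM in homozygous replicate 3 and liver genes 3284 TPM in heterozygous replicate 1.

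Among 9859 genes outside these lists that averaged 5 TPM or more, the 5 whose log2 values over the 9 libraries were most like the mean of the tested markers were *Dusp22* (Pearson r = 0.97), *Slc25a17* (r = 0.96), *Swi5* (r = 0.95), *Rpl29* (r = 0.95) and *Brk1* (r = 0.94). Their Spearman correlations were 0.90 to 0.92. *Dusp22*, a phosphatase gene, ran from 8.78 TPM in heterozygous replicate 2 to 13.8 TPM in homozygous replicate 2, the lowest and highest libraries of most macrophage markers. None of the 5 is a macrophage marker, and the ribosomal protein gene *Rpl29* is expressed in all cells. With 9 libraries on a common total, correlations of this size describe the order of the libraries only.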

How the data were processed

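Messenger RNA of 9 E18.5 mouse hearts, 3 per *Ctcf* genotype, had been captured on beads and sequenced. According to the methods and labels, the authors cleaned reads with Trim Galore, mapped them with STAR (mm10), estimated expression with RSEM and tested their own counts with DESeq2, which was not used here because counts were not analysed here. The authors deposited 1 table of TPM per gene symbol and library, in which estimated counts are divided by transcript length and rescaled to a fixed total. The annotation release and strand setting are not given in the sources used here. TPM holds no depth, so the spread between 3 libraries is the only measure of precision, and foreign or abundant transcripts lower all others in a library.

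Libraries were grouped by their titles. Symbols turned into dates (26 of 24597, at most 0.0921% of a library) were left out. Genes averaging at least 1 TPM were fitted as log2(TPM + 1) with limma (v3.58.1, R v4.3.3; eBayes with trend) on all 9 libraries without covariates, and p-values were two-sided and Benjamini-Hochberg adjusted within each of 3 comparisons, with calls under 0.05. A fold change on this scale understates that of scarce transcripts. *Cd163*, below the filter, was compared by exact permutation of its log2 values. The fit was tested on simulated data.

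The 10 markers were always named. Of 4 macrophage lists, called genes and the highest and lowest tested log2 change in homozygous against wild-type hearts were to be named, and 13 lists of other cells were summed in TPM. Members, lists and tests were chosen with earlier results of these data known. Likeness was the Pearson correlation with the mean centred log2 value of the tested markers. Coordinates are those of GENCODE M21 (mm10), and all promoter sequences those of RefSeq (GRCm38.p6). The alternatives tried were pseudocounts of 0.1 and 5, no filter or a mean of 5 TPM, median-ratio scaling, quantile normalization, no trend, robust eBayes, array weights, a replicate block, *Xist* as a covariate, 2 groups only, and leaving out each library or the 3 libraries with other organs.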

Additional observations from a re-analysis of the deposited data

How the results depend on the processing

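The count of called markers was 0 of 9 in all 3 comparisons and stayed 0 in 65 of 66 refits. The exception was homozygous against wild type with arrayWeights, where 2 were called, *Csf1r* (adjusted p 0.0358) and *Cx3cr1* (adjusted p 0.0201). That setting called 5068 of all genes in place of 46 and gave homozygous replicate 3 and wild-type replicate 3 weights of 0.258 and 0.356. The cause was not tested. Of 9 same-numbered pairs of libraries, 2 correlated above 0.1 once each genotype was centred on its mean. They were wild-type with heterozygous replicate 1 (0.359) and wild-type with heterozygous replicate 3 (0.297). The highest correlation between differently numbered libraries was 0.121. Whether the numbers stand for a shared origin was not tested. With the replicate block 0 markers and 17 genes were called in homozygous against wild type. The counts were 0 and 1 in homozygous against heterozygous and 0 and 1 in heterozygous against wild type. Counts over all genes in homozygous against wild type ranged from 11 without the 3 libraries with other organs to 2170 without wild-type replicate 3, arrayWeights aside, and were 240 after median-ratio scaling (39 higher), 71 after quantile normalization (12 higher), 61 and 31 with pseudocounts of 0.1 and 5, 22 without a filter, 63 without a trend, 64 with robust eBayes, 33 with *Xist* and 17 with 2 groups only. Without homozygous replicate 3 they were 247, and without each of the other 7 libraries 13 to 28.

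The log2 change of *Cx3cr1* in homozygous against wild type kept its sign in all 21 settings, from 0.30 with a pseudocount of 5 to 0.86 with a pseudocount of 0.1. Those of *C1qc*, *Csf1r*, *Cd68* and *Mrc1* also stayed above 0 but shrank to 0.034, 0.071, 0.029 and 0.11 after quantile normalization, and leaving out single libraries gave 0.21 to 0.39, 0.26 to 0.57, 0.23 to 0.50 and 0.26 to 0.53. Above 0 also stayed the difference of *Cd163*, with 0.50 to 0.81 on leaving out single libraries. In the same comparison, median-ratio scaling gave -0.093 for *C1qa*, -0.22 for *C1qb*, -0.063 for *Adgre1* and -0.24 for *Lyve1*, and quantile normalization gave -0.11, -0.22, -0.15 and -0.27. arrayWeights gave -4e-04 for *Adgre1*, and for *Lyve1* a pseudocount of 0.1 gave -0.0064 and the *Xist* covariate -0.018. Leaving out single libraries gave -0.013 to 0.38 for *C1qa*, -0.11 to 0.13 for *C1qb*, -0.31 to 0.39 for *Lyve1*, -2.04 to 0.87 for *Cbr2*, -0.010 to 2.44 for *Ptprc* and -0.43 to 0.10 for *Cebpb*, and *Cbr2* was 0.32 without the 3 libraries with other organs.

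In homozygous against heterozygous, *Lyve1* was 0.29 with arrayWeights, 0.45 with *Xist* and 0.39 without the 3 libraries, and leaving out single libraries gave -0.36 to 0.34 for *Lyve1* and -0.10 to 0.35 for *C1qb*. In heterozygous against wild type, arrayWeights gave 0.023 for *C1qa*, 0.029 for *C1qb*, 0.024 for *Csf1r* and 0.044 for *Cx3cr1*. Median-ratio scaling gave -0.091 for *C1qc*, -0.0605 for *Cd68*, -0.056 for *Mrc1* and -0.11 for *Lyve1*, quantile normalization -0.12, -0.11, -0.10 and -0.12, and *Xist* -0.14 for *Cd68* and -0.47 for *Lyve1*. Leaving out single libraries gave -0.29 to 0.13 for *C1qa*, -0.32 to 0.13 for *C1qb*, -0.054 to 0.29 for *C1qc*, -0.19 to 0.11 for *Csf1r*, -0.41 to 0.018 for *Adgre1*, -0.045 to 0.22 for *Cd68*, -0.25 to 0.09 for *Cx3cr1*, -0.084 to 0.36 for *Mrc1* and -0.13 to 0.28 for *Lyve1*. The cause of the reversed signs was not tested.

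The depth is unknown, and 3 libraries a group with a median SE of 0.18 on the log2 scale leave changes of the size seen here undecided for a single gene.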
